A study of Macaca mulatta with 48 samples.

Results

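Early spermatocytes, the germ cells that have entered meiosis and pass through leptotene and zygotene, were described here in single-cell RNA-seq of rhesus monkey testis. A barcode was taken as an early spermatocyte if it carried at least 1 UMI (unique molecular identifier, a counted RNA molecule) in at least 3 of the 9 genes SMC1B, TEX101, DPEP3, SYCP1, MEIOB, DMC1, HORMAD1, ZCWPW1 and PRDM9, no UMI of AURKA, CCNA1 or PIWIL1, and under 5% of its UMIs in PRM1, PRM2 and TNP1 together. DMC1 was not analysed here, as no feature carried that symbol, so 8 of the 9 genes were used. The rule held for 2543 of 112150 barcodes that passed a filter on genes (300 or more), UMIs (no more than 30000) and mitochondrial UMIs (no more than 3% in 13 genes). These were 2.27% of passing barcodes, with 346 from prepubertal, 1782 from adult and 415 from aged animals.

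The study profiled 6 male monkeys, with no genetic change or treatment in the labels, 2 each at 1 year (prepubertal), 6 years (adult) and 22 years (aged). One testis of each animal was removed in the non-breeding season (August) and the opposite testis in the breeding season (December), so season and the order of removal cannot be told apart. Each of the 12 testes gave 1 library from a collagenase digest, and each age and season was represented by 2 animals. Because the GEO labels list 48 samples, 8 in each of 6 groups, and name no matrix, the animal and season of each library were taken from the study's own library sheet.

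In leptotene the chromosomes condense along an axis of cohesin and axial proteins, and programmed DNA double-strand breaks are made at sites that PRDM9 marks in many mammals. In zygotene the recombinases on the broken ends search for the homologous chromosome, telomeres attach to the nuclear envelope and the synaptonemal complex begins to join the homologues. Entry into this programme is driven by STRA8 and MEIOSIN, and the X and Y chromosomes are silenced later, when synapsis is complete in pachytene.

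Promoter sequences are shown for the 3 genes that held the motif CNCCTCAG on either strand, among the 8 rule genes and the 12 located leading genes of these cells. The window was the 200 bases upstream of the RefSeq gene start, and no transcript start was chosen. STRA8 and MEIOSIN bind this motif in mouse. The sequences were read from the Mmul_10 genome, 5′ to 3′ on the strand of the gene, with the motif or its reverse complement in capitals. PRDM9, the methyltransferase that marks recombination sites, has its window at chr6:23667761-23667960 on the plus strand. RAD51AP2, a gene of strand invasion, has its window at chr13:91447052-91447251 on the plus strand. IQCB1, a ciliary protein gene, has its window at chr2:154482492-154482691 on the plus strand.
PRDM9: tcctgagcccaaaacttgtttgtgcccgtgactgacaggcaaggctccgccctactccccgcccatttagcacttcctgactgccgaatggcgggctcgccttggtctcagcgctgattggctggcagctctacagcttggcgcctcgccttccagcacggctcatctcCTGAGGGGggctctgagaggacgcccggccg
RAD51AP2: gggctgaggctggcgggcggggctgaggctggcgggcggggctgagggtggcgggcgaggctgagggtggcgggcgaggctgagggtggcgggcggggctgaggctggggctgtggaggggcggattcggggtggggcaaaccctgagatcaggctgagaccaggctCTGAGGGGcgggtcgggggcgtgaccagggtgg
IQCB1: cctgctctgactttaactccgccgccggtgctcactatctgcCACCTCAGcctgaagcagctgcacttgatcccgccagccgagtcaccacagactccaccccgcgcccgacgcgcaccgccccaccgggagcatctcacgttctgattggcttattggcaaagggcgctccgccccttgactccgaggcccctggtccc
The motif lay 31 bases before the start in PRDM9, 33 in RAD51AP2 and 158 in IQCB1. It was in 1040 of 16226 protein-coding promoters (6.41%), in 1 of the 8 rule genes and in 2 of the 12 leading genes, so most of the genes that mark these cells lacked these letters in this window.

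Library totals ran from 23072680 to 43405583 UMIs except for adult animal 2 in the breeding season, whose library had 959819 UMIs and 117 passing barcodes. That library gave 1 early spermatocyte and entered no season comparison of genes, so the adult breeding season rested on adult animal 1. The 1457 UMIs of this cell entered only the sums per animal used between ages. It shared 46 of its 117 passing barcodes with the breeding library of aged animal 1 and 0 to 2 with each of the others, whereas the 55 pairs among the other 11 libraries shared 13 to 50 passing barcodes. Among early spermatocytes, 78 carried a barcode seen in another library and 1 barcode met the rule in both. In the other 11 libraries the summed early spermatocytes gave 99126 to 5320143 UMIs, from 32 cells in the non-breeding library of aged animal 1 to 1175 cells in the same season of adult animal 1.

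SYCP3, RAD51AP2 and UTF1, which the rule did not use, went with the label of early spermatocyte in 8 of these 11 libraries. In the other 3, all prepubertal, they went against it. RAD51AP2 was also the first of the leading genes ranked below over the adult and aged libraries, so its high level there was partly set in advance. In the breeding libraries of prepubertal animals 1 and 2 and the non-breeding library of prepubertal animal 2, which held 35, 27 and 35 barcodes that met the rule, SYCP3 of the chromosome axis was at 23.2, 33.0 and 14.3 CPM (the gene's UMIs relative to all UMIs summed over the cells of a library). In the other 8 libraries SYCP3 lay between 341 and 602 CPM. RAD51AP2 was at 0, 11.01 and 0 CPM in those 3 libraries and between 259 and 767 CPM elsewhere. UTF1, a gene of undifferentiated spermatogonia, was at 593, 518 and 559 CPM in the 3 libraries and between 6.17 and 133 CPM in the others. The 97 barcodes of these 3 libraries are therefore called by the rule and not by the cell type. The non-breeding library of prepubertal animal 1 stood apart from them, with 249 cells, SYCP3 at 409 CPM and RAD51AP2 at 448 CPM. This library had UTF1 at 133 CPM, against 191 CPM in its spermatogonial gate (described below), a smaller contrast. Its expression profile correlated with that of adult animal 1 in the same season at r = 0.966 over 9086 genes, and at 0.803 to 0.828 with the other prepubertal libraries, as a description across genes of summed libraries.

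The rule genes were read from UMIs and were also found at low rates in cells that should lack them. In the 8 libraries that went with the label, SMC1B, the meiotic cohesin subunit, had a UMI in 53.1 to 88.4% of early spermatocytes and in 0 to 15.9% of endothelial barcodes. MEIOB, which binds single-stranded DNA at breaks, had a UMI in 46.9 to 63.5% against 0 to 11.6%. PRDM9 was sparse, with a UMI in 1.92 to 8.22% of the early spermatocytes against 0 to 1.28%. Of the 2543 cells, 1042 (41.0%) carried exactly 3 of the genes, 621 carried 4, 412 carried 5, 285 carried 6, 162 carried 7 and 21 carried 8. Just inside the rule, the 1042 barcodes with exactly 3 genes had a median of 3341.5 UMIs and SMC1B in 72.4%. Just outside it, the 2457 barcodes with exactly 2 genes had a median of 3177 UMIs and SMC1B in 46.4%. Of 5945 barcodes with at least 3 of the genes, 3244 were lost to a UMI of AURKA, CCNA1 or PIWIL1, with 905 barcodes carrying a single such UMI, and 158 more to the protamine limit, which had 28 cells just inside it (4 to 5%) and 30 barcodes just outside (5 to 6%).

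Early spermatocytes were most frequent in the adult testis in the non-breeding season. They made up 12.7% (95% Wilson interval 12.1 to 13.4) of passing barcodes of adult animal 1 and 4.92% (4.52 to 5.36) of adult animal 2 in the non-breeding season. In the breeding season they were 1.06% (0.867 to 1.28) in adult animal 1 and 0.855% (0.151 to 4.68) in adult animal 2. The 1 cell of adult animal 2 in the breeding season carried a barcode that also passed in the breeding library of aged animal 1. Both non-breeding shares lay above both breeding shares. The mean difference, breeding minus non-breeding, was -2.77 on the log2 scale, with an exact two-sided permutation p = 0.333, the smallest that 2 against 2 libraries allow, and it was -2.90 with the small breeding library of adult animal 2 left out. For log2 differences, 0.5 was added to the count of cells and 1 to that of barcodes. The intervals cover counting error only.

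Aged animals went in opposite directions. In aged animal 1 the share was 0.249% (0.176 to 0.351) in the non-breeding season and 1.38% (1.14 to 1.67) at the later, breeding-season removal, a difference of 2.45 on the log2 scale. In aged animal 2 it was 1.58% (1.38 to 1.81) and then 0.677% (0.539 to 0.850), a difference of -1.22. The mean difference of 0.616 had an exact permutation p of 1, and it turned to -0.710 once the first library of aged animal 1 (non-breeding) was left out. In that library 88.6% of barcodes with at least 3 rule genes were lost to a UMI of the late genes. The other libraries lost 22.9 to 73.6%. This loss was 41.3% and 57.8% in the adult non-breeding libraries and 70.7% in the breeding library of adult animal 1. Without limits on late genes and protamines the log2 difference was -2.32 and -2.56 in adult animals 1 and 2 (-3.58 and -1.95 with them). In aged animals 1 and 2 it was then 1.09 and -0.884. Over the 4 adult and aged animals, taken as pairs, the mean change was -1.08 with an exact sign-flip permutation p of 0.5, where 0.125 is the smallest possible. It was -0.241 without adult animal 1, -2.25 without aged animal 1 and -0.339 with barcodes thinned to 1000 UMIs.

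Before puberty the rule held for 2.38% (2.10 to 2.69) of passing barcodes in the non-breeding library of animal 1 and for 0.485% (0.349 to 0.674) in its breeding library. In prepubertal animal 2 the shares were 0.309% (0.222 to 0.429) and 0.273% (0.187 to 0.396). Of these 4 libraries, the first had SYCP3 and RAD51AP2 at the levels of the adult libraries and the other 3 had both far below them, as described above.

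Depth differed between libraries, so the shares were also computed at a fixed depth. Early spermatocytes of adult animal 1 had a median of 3816 UMIs in its non-breeding library and 2017 in its breeding library, and 1660 to 2610.5 in the 4 aged libraries. With every barcode thinned to 1000 UMIs and shallower ones left out, the share was 6.43% and 0.694% in adult animal 1 in the non-breeding and the breeding season. In adult animal 2 it was 3.03% and then 2.27%, the latter being 1 of 44 barcodes. On the log2 scale the thinned difference was -3.20 in adult animal 1 and 0.135 in adult animal 2, which turned from -1.95 without thinning, its sign resting on the offset of 0.5. Their mean was -1.53 with an exact two-sided permutation p of 0.667. In the 3 prepubertal libraries with low axis genes, 2 or 3 barcodes were left, 0.0182 to 0.0496% of the barcodes deep enough to thin.

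**Figure D1:**
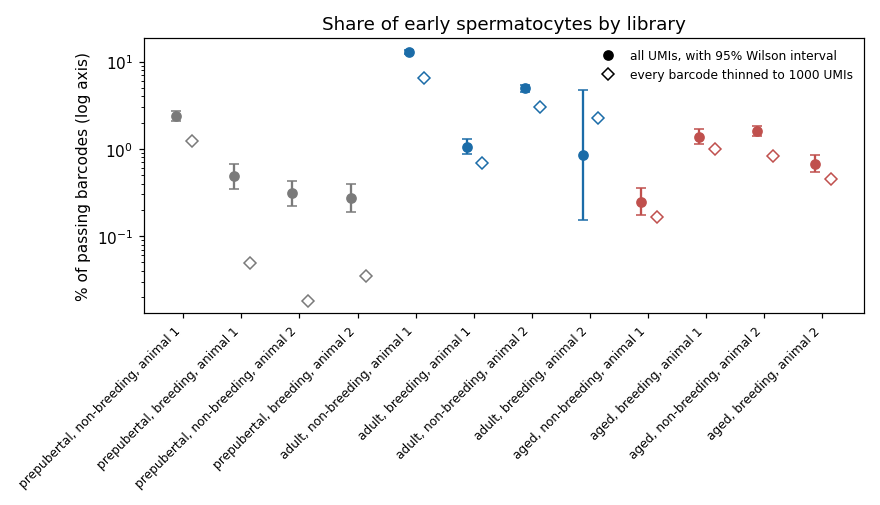
Share of early spermatocytes among passing barcodes in each of the 12 libraries (log axis), from all UMIs with its 95% Wilson interval (filled circles) and after thinning every barcode to 1000 UMIs (open diamonds), with prepubertal libraries in grey, adult in blue and aged in red. The non-breeding libraries of adult animals 1 and 2 are highest, at 12.7% and 4.92%.

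The genes that led these cells, outside the rule genes, included RAD51AP2, BRCA2, SMC3, HELLS, CLSPN and GAGE10. They were ranked by the median over 7 adult and aged libraries of the log2 ratio of their level in early spermatocytes to that in all other passing barcodes, a description with no test because the cells were chosen by their expression. RAD51AP2 led with 4.18 (range 2.49 to 5.31), with a mean of 420 CPM in early spermatocytes and 18.9 CPM in the rest. In the spermatogonial gate (3007 barcodes with at least 3 spermatogonial genes and under 3 of the rule genes) it was at 8.72 CPM, and in the later spermatocyte gate (11900 barcodes with at least 2 of AURKA, CCNA1 and PIWIL1) at 22.7 CPM. BRCA2, of homologous recombination, was at 190 CPM in early spermatocytes, 33.3 in the spermatogonial and 16.4 in the later gate. SMC3, a core cohesin subunit, was at 583 CPM against 81.3 in the rest. HELLS, a chromatin remodeller, and CLSPN, a replication checkpoint mediator, had medians of 3.64 and 3.39.

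Some leading genes have a known place in these cells only through the families they belong to. FMR1NB and CT47B1 on the X chromosome, and GAGE10, are cancer-testis genes. FMR1NB was at 274 CPM in early spermatocytes, 25.7 in the spermatogonial and 19.4 in the later gate. GAGE10 was at 1292 CPM, 629 and 82.0 in the same order, so it was high in spermatogonia too. The histone genes H4C3 and H1-1, with medians of 3.84 and 3.11, and GAGE10 have near-identical copies among which counted reads could be split, so their levels are uncertain. NCL, IQCB1, LY6K, STXBP5L and CCDC73 completed the 15 leading genes, with medians of 3.12 to 3.53. Each of the 15 was higher in early spermatocytes in 7 of 7 libraries, which their ranking over these same libraries made likely in advance.

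Early spermatocytes, which the rule requires to show several genes, had many genes at a fixed depth. At 1000 UMIs per cell, over the 8 libraries that went with the label, the median number of genes was 806 to 835 in early spermatocytes, 773 to 805 in the spermatogonial gate, 761 to 786 in the later gate and 744 to 802.5 in endothelial barcodes, with early spermatocytes highest in each library.

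Levels of the meiotic genes are given next by role, first for the non-breeding libraries of adult animals 1 and 2, then for the breeding library of adult animal 1, then for the aged libraries. Among genes of meiotic entry, STRA8 was at 14.3 and 24.2 CPM, at 0 in the adult breeding library, and at 0 to 10.5 CPM in the aged libraries. MEIOSIN, its partner, was at 10.9 and 10.7, 21.4, and 10.1 to 19.6 CPM, with few counts behind either gene. MEIOC, which prolongs the meiotic prophase programme, was at 108 and 127, 132, and 50.4 to 176 CPM. SOHLH1, a transcription factor of differentiating spermatogonia, was at 61.3 and 99.3, 7.13, and 10.1 to 47.0 CPM.

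Axis genes were present in every adult and aged library. SYCP3 was at 381 and 397, 602, and 341 to 420 CPM, and SYCP2 at 197 and 202, 428, and 284 to 444 CPM. HORMAD2, a sensor of unsynapsed axes, was at 128 and 161 in the non-breeding, 410 in the breeding and 266 to 464 CPM in the aged libraries. The adult breeding value of HORMAD2 lay within the range of the aged libraries and outside that of the adult non-breeding ones. SYCE3 of the central region was at 196 and 151, 342, and 194 to 475 CPM. SYCE1, of the same region, was at 34.8 and 54.2, 46.3, and 90.8 to 216 CPM.

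Genes of break formation and repair were read in the same libraries. ANKRD31, which sites the breaks, was at 149 and 163, 146.1, and 157 to 232 CPM, and TEX15 at 294 and 365, 299, and 210 to 486 CPM. SPO11, which cuts the DNA, was at 3.92 to 13.98 CPM in all adult and aged libraries, close to the level of a few counts. RAD51AP2 was at 348 and 266, 367, and 259 to 767 CPM, and BRCA2 at 213 and 209, 175, and 111 to 255 CPM. SPATA22, which acts with MEIOB, was at 163 and 167, 474, and 188 to 353 CPM. The aged range overlapped that of the adult non-breeding libraries for ANKRD31, TEX15, RAD51AP2 and BRCA2, and not for SPATA22. The value of the adult breeding library lay within the adult non-breeding pair for TEX15. It lay outside that pair for ANKRD31, RAD51AP2, BRCA2 and SPATA22.

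Crossover and telomere genes were read in the same way. HFM1, a crossover helicase, was at 186 and 179, 203, and 222 to 514 CPM. SHOC1, which stabilises crossover intermediates, was at 141 and 97.7, 128, and 83.9 to 212 CPM. TERB1, which ties telomeres to the envelope, was at 133 and 135, 196, and 105 to 151 CPM. SPDYA, a telomere-bound activator of CDK2, was at 77.8 and 84.8, 250, and 117 to 204 CPM. SPDYA, HORMAD2, SYCE1 and SPATA22 were named after their values were seen. How many of all genes separate the libraries in the way these do was not counted.

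**Figure D2:**
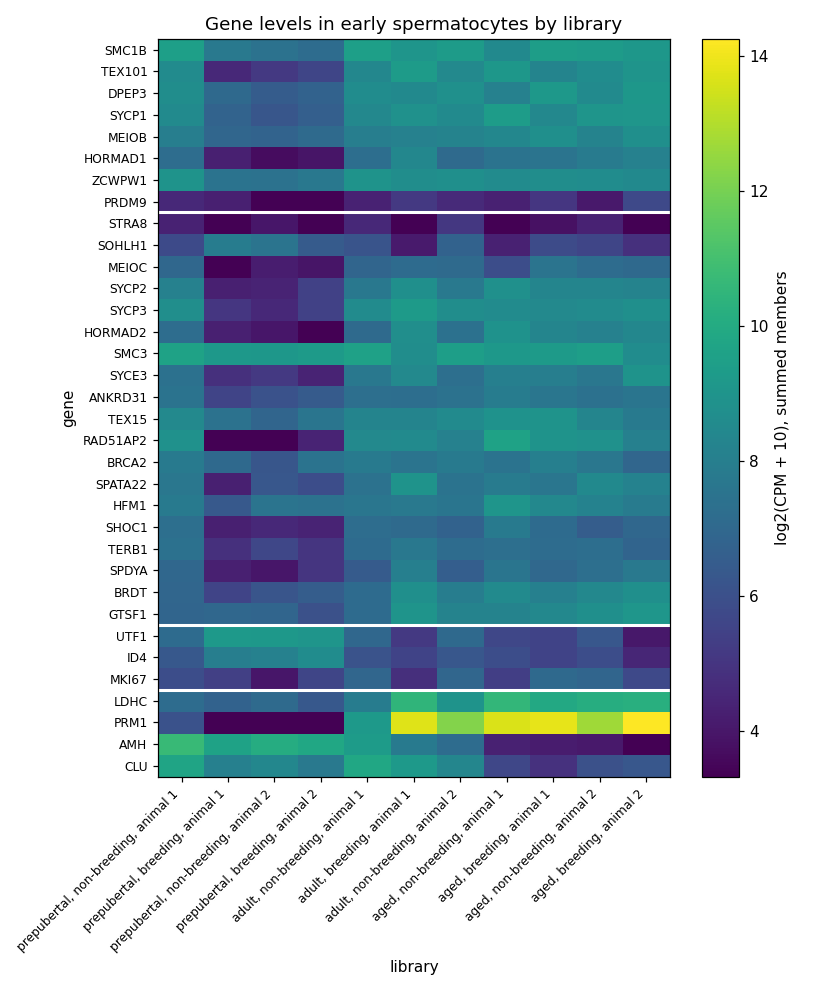
Level of 34 genes in the summed early spermatocytes of 11 libraries, as log2(CPM + 10), with white lines between the rule genes, the meiotic genes, the spermatogonial genes and genes of other stages or cells. The 3 prepubertal libraries after the first are dark for SYCP3, HORMAD1 and RAD51AP2 and bright for UTF1.

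The cells fell into 12 clusters by their own expression, none of which is given a cell type name. Clusters 4, 6 and 7 had the highest summed levels of the strand invasion list. Cluster 6 (268 cells, 10.5%) was led by RAD51AP2, at 1985 CPM, with SYCP1, SYCP2 (976 CPM) and HFM1 among its leading genes and STRA8 at 0. Cluster 4 (285 cells) was led by H1-1, KIF1A and SYCE3, and had SYCP3 at 1176 CPM. Cluster 7 (210 cells) held RAD51AP2 at 1291 CPM and was led by ZNF572, GML and ANKRD30A, with the sperm surface gene ADAM2 and with ART3 among its leading genes.

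Other clusters carried genes of earlier stages. Cluster 2 (361 cells) was led by NRG3, with UTF1 at 514 CPM, and it held 21 of 35, 25 of 35 and 22 of 27 barcodes of the 3 prepubertal libraries with low axis genes (breeding of animal 1, non-breeding and breeding of animal 2). It also held 169 of 1175 and 78 of 507 cells of the non-breeding libraries of adult animals 1 and 2. Its SYCP3 was at 81.4 CPM and its RAD51AP2 at 23.6 CPM, so these adult cells too are called by the rule and not by the cell type. Clusters 3 (318 cells) and 8 (174 cells) shared GCNA and CCND1 among their leading genes, with STRA8 at 46.8 and 57.5 CPM. Cluster 3 had 257 cells of adult animal 1 and cluster 8 had 141 cells of adult animal 2, all from non-breeding libraries. Cluster 11 (57 cells) was led by histone genes and had MKI67, a marker of cycling cells, at 683 CPM.

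The remaining clusters carried genes of other cell types. Cluster 1 (375 cells, 14.7%) was led by KIAA1217, SERPINA5 and MAP1B with the Sertoli genes AMH (1929 CPM), CLU, FSHR and INHA, and 40.3% of it was marked as doublets. Cluster 10 (77 cells), led by DCN, IGF2 and IGFBP7, had 33.8% doublets, and cluster 12 (24 cells, prepubertal libraries only), led by PCDH11X, CCN1 and FOS, had 45.8%. Cluster 9 (122 cells) was led by spermatid genes and had 27.9%. It held 14 of 99 cells of the adult breeding library and 6 of 1175 and 35 of 507 of the adult non-breeding ones. In the aged libraries it held 7 of 32, 10 of 102, 33 of 208 and 17 of 73. SYCP3 was at 114 CPM in cluster 9 and 16.9 CPM in cluster 12, and RAD51AP2 at 44.6 and 4.23 CPM. Cells of clusters 9 and 12 too are called by the rule and not by the cell type. Cluster 5 (272 cells) was led by HBE1, PRM1 and PRM2 and had a median of 1780 UMIs. HBE1, an embryonic globin gene, led it through 1 library, as 327 of its UMIs were in the 21 cells of the first library of aged animal 1 and 2 in the other 251 cells, where PRM1, PRM2 and TPPP2 led. It held 53 of 99 early spermatocytes of the adult breeding library and 21 of 32, 81 of 102, 38 of 208 and 41 of 73 of the aged libraries (non-breeding and breeding of animal 1, then of animal 2). In the non-breeding libraries of adult animals 1 and 2 it held 5 of 1175 and 32 of 507. The adult seasons compared below therefore differed in their clusters. Over all cells, 260 (10.2%) of early spermatocytes were marked as doublets against 8.39% of all passing barcodes, and they were kept.

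**Figure D3:**
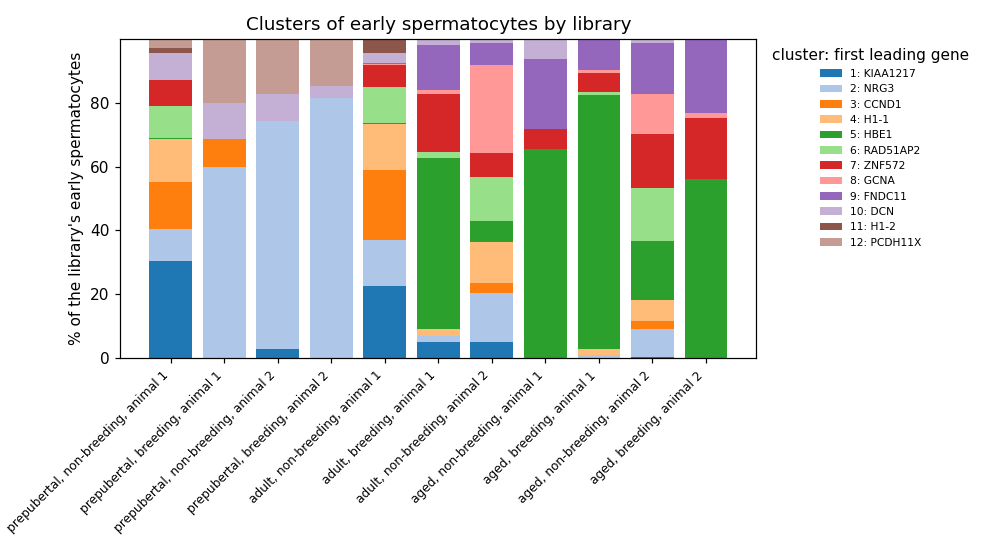
Percent of each library's early spermatocytes in each of 12 clusters, with the first leading gene of each cluster in the legend (HBE1 leads cluster 5 through 21 cells of 1 aged library). Cluster 2 fills 21 of 35 to 22 of 27 cells of 3 prepubertal libraries, and cluster 5 fills 53 of 99 cells of the adult breeding library and 21 of 32, 81 of 102, 38 of 208 and 41 of 73 of the aged ones. In the adult non-breeding libraries cluster 2 holds 169 of 1175 and 78 of 507 cells, and cluster 5 holds 5 of 1175 and 32 of 507.

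Genes of other cell types were measured in the same cells, since they differed between the groups compared below. Of the list for spermatids, 21 to 23 of 23 measured genes were detected in every adult and aged library. The list summed to 1563 CPM in adult animal 1 and 11304 CPM in adult animal 2 in the non-breeding season, 26530 CPM in the adult breeding library and 18586 to 36934 CPM in the aged ones. In endothelial barcodes of the same libraries it summed to 4397, 13225, 28741 and 40687 to 76530 CPM, in each case more than in early spermatocytes. The rule limits PRM1, PRM2 and TNP1 of this list in early spermatocytes and not in endothelial barcodes, so this order was partly set in advance. PRM2 had a UMI in 34.0% of early spermatocytes and 39.1% of endothelial barcodes of adult animal 1 in the non-breeding season, and in 97.0% and 100% in the breeding season. The list for Sertoli cells, with 8 to 16 of 16 genes detected, summed to 5071 and 1832 CPM in the adult non-breeding libraries, 1857 CPM in the breeding one and 196 to 777 CPM in the aged ones. The non-breeding library of aged animal 1 also carried 4550 CPM of the list for red blood cells and 424 CPM of that for T cells, against 0 to 53.7 and 22.8 to 50.9 CPM in the other 10.

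**Figure D4:**
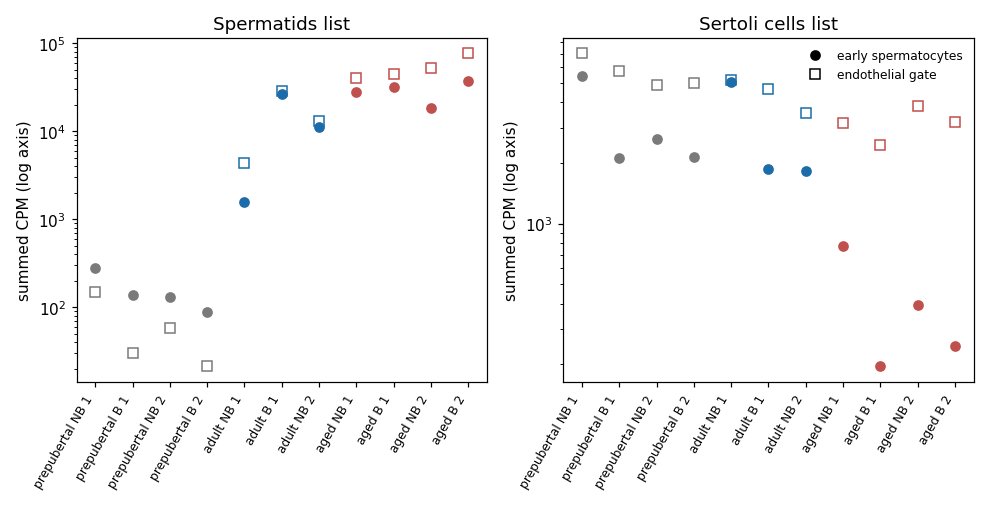
Summed CPM of the spermatid list (left) and of the Sertoli list (right) in early spermatocytes (filled circles) and in endothelial barcodes (open squares) of 11 libraries, on log axes. In every adult and aged library the spermatid list is lower in early spermatocytes, where the rule limits PRM1, PRM2 and TNP1, than in endothelial barcodes.

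In the adult season comparison the number of genes called depended on the fit. With the groups alone, edgeR called 0 of 10025 genes at an adjusted p under 0.05, 1255 genes had an unadjusted p under 0.05 (707 or 7.05% higher, 548 or 5.47% lower in the breeding season) and DESeq2 called 18. The same edgeR test called 287 genes without the filter on low counts and 701 with adult animal 2 left out, a fit of 1 adult library against 1 whose spread came from the other ages. With another scaling (RLE) the 1255 split became 918 higher and 408 lower, and the median log2 change of all genes moved from -0.18 to -0.037. With the animal as a replicate block, edgeR called 1006 genes (10.0%), of which 790 (7.88%) were higher and 216 (2.15%) lower in the breeding season. The blocked change came from the single pair of adult animal 1, and its spread from the aged and prepubertal pairs, so this pair was assumed to vary as they did. Blocked counts stayed between 827 and 1328 without the prepubertal libraries, with RLE scaling, without clusters 1 and 10 and without marked doublets. Those lower fell to 85 without these clusters and to 90 without doublets.

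Genes of later stages were among those called higher in the adult pair. Of 21 tested spermatid genes, 20 were called higher with the block (17 of 18 outside PRM1, PRM2 and TNP1, which the rule limits), as were 10 of 19 genes of the pachytene and diplotene list and none lower, with medians of 1.95 and 1.76 on the log2 scale without the block, against -0.18 over all genes. PRM1, the protamine of condensed sperm chromatin, was at 578 CPM in adult animal 1 and 4782 CPM in adult animal 2 in the non-breeding season and at 13338 CPM in the breeding library, a description because the rule limits it. LDHC, the testis lactate dehydrogenase, was at 230, 474 and 1429 CPM in the same order, a blocked change of 2.68 ± 0.53 (edgeR adjusted p = 2.18e-05). The 790 genes called higher had a median log2 change of 2.19 in early spermatocytes of this pair, from whose change they were picked. It was 3.10 in the spermatogonial gate, 1.03 in the later gate and 0.589 in endothelial barcodes. Over all tested genes the medians in these gates were -0.738, -0.280 and -0.215. Of the 790 genes 4 (0.506%) were at least 2-fold higher in early spermatocytes than in other barcodes, against 18.3% of all tested genes. What part the spermatid RNA of the breeding library had in these calls was not tested.

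Calls among the meiotic lists are read against the 7.88% of all genes called higher with the block. The 8 rule genes had a median log2 change of 0.26, with SMC1B at -0.32, SYCP1 at 0.45 and HORMAD1 at 1.30, which are a description because the rule chose cells by these genes. HORMAD2 was called higher with the block at 1.72 ± 0.52 (edgeR adjusted p = 0.0129), 1 of 12 axis and cohesin genes. SPATA22, 1 of 26 genes of strand invasion, was called at 1.58 ± 0.51 (edgeR adjusted p = 0.0243). Among 6 telomere genes, SPDYA (1.72 ± 0.54) and TERB2 (1.99 ± 0.62) were called higher, from 30.3 to 118 CPM in TERB2. BRDT, a chromatin reader of meiotic and later germ cells, rose by 1.73 ± 0.52, 1 of 13 genes of the pairing checkpoint and silencing list, and GTSF1 rose by 1.92 ± 0.52, 1 of 2 called among 19 genes of the piRNA pathway. These 6 genes were called in each of the 4 other forms of the block. Each form used the same pair of libraries of adult animal 1, so the forms are not independent of each other. With the block no gene of the break formation (8 tested) or crossover (13 tested) lists was called, but the crossover gene MLH3 was called higher without the prepubertal libraries. FKBP6, the other piRNA pathway gene, was called in 2 of those 4 forms.

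Some genes of earlier stages were called lower in the adult pair, as were 2.15% of all genes. The 216 genes called lower had a median log2 change of -2.01 in early spermatocytes of this pair, from whose change they were picked. It was -2.71 in the spermatogonial gate, -1.31 in the later gate and -0.452 in endothelial barcodes. Over all tested genes the medians in these gates were -0.738, -0.280 and -0.215. SOHLH1 fell by 3.04 ± 0.96 on the log2 scale with the block (edgeR adjusted p = 0.0203), UTF1 by 2.18 ± 0.70 and MKI67 by 2.62 ± 0.78, which were 3 of 13 tested spermatogonial genes. SOHLH1 and TAF4B (a fall of 2.40 ± 0.83, called in 1 of the 4 other forms) were 2 of 10 genes of meiotic entry. UTF1 was at 116 and 122 CPM in the adult non-breeding cells and at 24.95 CPM in the breeding one. MKI67 was at 113 and 112 CPM and at 17.8 CPM. SCML2, a Polycomb protein of the X and Y chromosomes in spermatocytes, fell by 2.28 ± 0.75, from 107 and 104 CPM to 21.4 CPM. SCML2 is X-linked, and 11.6% of X-linked genes were called lower with the block. Its mean over adult and aged libraries was lower in the spermatogonial gate (22.1 CPM) than in early spermatocytes (71.3 CPM), unlike a gene of earlier stages. In the same pair 6 of 16 Sertoli genes were called lower, AMH by 1.52 ± 0.54. The list had 8 such calls without the prepubertal libraries, 5 without clusters 1 and 10, 3 with RLE scaling and 2 without doublets. AMH was called in 2 of these 4 forms, with an edgeR adjusted p of 0.399 without doublets. Among housekeeping lists, 3 of 63 genes of the cytosolic ribosome were called lower (median -0.55, or -0.41 with RLE scaling). Of these genes RPL10 and RPL39 are X-linked. The median was -1.38 over 3 X-linked and -0.53 over 60 other genes of the list. The number called was 4 without the prepubertal libraries, 1 with RLE scaling, 0 without clusters 1 and 10 and 1 without doublets. Of 63 nuclear genes of oxidative phosphorylation 1 was called higher and 1, the X-linked COX7B, lower (median 0.081).

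The 5 genes with the lowest unadjusted p in the adult comparison were ART3, SSRP1, LZTFL1, PRPS1L1 and ATP8B3. ART3, a surface protein related to ADP-ribosyltransferases, was at 123 and 141 CPM in the non-breeding libraries and at 627 CPM in the breeding one, a log2 change of 2.31 ± 0.44 (edgeR adjusted p = 0.252, or 0.00014 with the block). SSRP1, a subunit of the histone chaperone FACT, was at 96.6 and 97.7 CPM and at 7.13 CPM, a change of -3.68 ± 0.70 (edgeR adjusted p = 0.252, or 0.00145 with the block). TCEAL5 was at 115 and 26.8 CPM and had no count among 280552 UMIs of the breeding library, which made it at least 6.62-fold lower at a floor of 3 counts over the group. Of 20 immediate early and heat shock genes 4 were called lower with the block, but 1 without clusters 1 and 10 and 1 without doublets. JUN was called in each of these forms, at 250 and 95.6 CPM in non-breeding libraries against 17.8 CPM.

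In aged animals few genes were called between seasons. Without the block edgeR called 0 of 10025 genes, or 8 without the filter on low counts and 1 with the first library of aged animal 2 left out, 257 had an unadjusted p under 0.05 (58 or 0.579% higher, 199 or 1.99% lower in the breeding season) and DESeq2 called 0. Changes were simulated at the same depth, with a common spread for all genes, and only in genes above the median level. Of these, 4-fold changes were called in 49.5% of cases and 8-fold changes in 83.5%. With the animal as a block 11 genes (0.110%) were called, 10 (0.0998%) lower and 1 (0.00998%) higher. FOS, an immediate early factor, was at 80.7 CPM in animal 1 and 64.7 CPM in animal 2 in the non-breeding season and had no count in both breeding libraries, at least 10.1-fold lower. HBE1 was at 3622 CPM in the first library of animal 1, the library with red blood cell genes. PET100, a factor of cytochrome oxidase assembly, was the gene called higher, at 10.1 and 17.5 CPM in the non-breeding and 27.4 and 259 CPM in the breeding libraries.

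The interaction tested whether adult and aged animals differed in their seasonal change. edgeR called 0 genes, 559 had an unadjusted p under 0.05 (277 or 2.76% higher, 282 or 2.81% lower in the adult minus the aged change, which became 345 and 204 with RLE scaling) and DESeq2 called 0. edgeR called 4 without the filter on low counts and 274 with adult animal 2 left out. With the block 406 genes (4.05%) were called, 386 (3.85%) higher and 20 (0.200%) lower. DMRT3, a DNA-binding factor of the DMRT family, was at 293 and 267 CPM in the adult non-breeding libraries and 67.7 CPM in the breeding one, but at 60.5 and 110 CPM in the aged non-breeding and 235 and 154 CPM in the aged breeding libraries. Its interaction had an edgeR adjusted p of 0.00162 with the block, and it was picked after its values were seen. In prepubertal animals edgeR called 0 genes between seasons, 529 had an unadjusted p under 0.05, of which 128 (1.28%) were higher in the breeding season, or 191 of 494 with RLE scaling, and DESeq2 called 0. edgeR called 73 without the filter on low counts and 30 without the first library of prepubertal animal 2 (non-breeding). With the block 36 (0.359%) were called, 3 (0.0299%) higher and 33 (0.329%) lower, in libraries of which 1 had SYCP3 and RAD51AP2 at adult levels.

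Between aged and adult animals, with the seasons summed in each animal, edgeR called 0 of 12554 genes, 2458 had an unadjusted p under 0.05 (1609 or 12.8% higher, 849 or 6.76% lower in aged animals) and DESeq2 called 571, and edgeR called 1421 without the filter on low counts. These sums carry season too, since 94.99% and 99.9% of the UMIs of adult animals 1 and 2 were non-breeding, against 27.97% and 77.9% in aged animals 1 and 2. With libraries as samples and season in the fit, which takes the 2 libraries of an animal as independent, 562 of 10025 genes were higher and 639 lower in aged animals at an unadjusted p under 0.05, and edgeR called 14, all lower. Without adult animal 2 the fit of sums called 1144 and without adult animal 1 it called 3, each with 1 adult animal left. INHA, the inhibin alpha subunit of Sertoli cells, was at 121 to 339 CPM in adult and 3.92 to 30.3 CPM in aged libraries, a log2 change of -4.44 ± 0.62 (edgeR adjusted p = 0.121, or 0.00254 with season in the fit). CFAP45, an axonemal protein, was at 46.2, 410 and 111 CPM in the adult libraries (non-breeding and breeding of animal 1, non-breeding of animal 2) and 309 to 549 CPM in the aged ones, a change of 2.34 ± 0.36 (edgeR adjusted p = 0.121) or, with season in the fit, of 1.33 ± 0.60. IFT22, of intraflagellar transport, and ZNF689 had changes of 1.75 ± 0.27 and 1.94 ± 0.28, or 1.003 ± 0.41 and 1.11 ± 0.47 with season in the fit. The adult breeding library lay with the aged ones for CFAP45, IFT22 and ZNF689.

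Many genes of the lists of later stages and of Sertoli cells had a low p between ages in the animal sums. All 21 spermatid genes (18 outside those the rule limits) and 14 of 19 pachytene and diplotene genes had an unadjusted p under 0.05 and were higher in aged animals, with medians of 2.05 and 1.30 against -0.012 over all genes, and 15 of 16 Sertoli genes were lower with a median of -3.15. With season in the fit, 9 of 21 spermatid and 2 of 19 pachytene and diplotene genes were higher at that level, with medians of 1.24 and 0.67, and 15 of 16 Sertoli genes were lower, 3 of them past adjustment. Age and season cannot be told apart in the sums for the genes of later stages, which differed between the adult libraries by season. Of the genes of meiosis, at that level in the sums, where 6.76% of all genes were lower and 12.8% higher, 1 of 13 genes of meiotic entry, 1 of 12 axis and cohesin genes and 1 of 29 genes of strand invasion were lower. Higher were 1 of 2 central region genes, 1 of 9 genes of break formation, 1 of 9 of telomere attachment, 2 of 13 of crossover, 1 of 13 of the pairing checkpoint and silencing and 4 of 21 of the piRNA pathway. With season in the fit, 2 of 26 genes of strand invasion were lower and 1 of 2 central region and 1 of 13 crossover genes higher, and no gene of the other 6 of these lists was at that level in either direction. SYCE1 was higher at 1.90 ± 0.54, without passing adjustment. The part of free RNA and doublets in these differences was not tested.

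Between prepubertal and adult animals, whose sums hold unequal shares of the seasons too, edgeR called 0 of 12554 genes, 1580 had an unadjusted p under 0.05 (514 or 4.09% higher, 1066 or 8.49% lower before puberty) and DESeq2 called 495, and edgeR called 1002 without the filter on low counts. PCDH11X, a protocadherin, was at 117 to 167 CPM in the prepubertal and 0 to 12.4 CPM in the adult libraries, a change of 3.77 on the log2 scale (edgeR adjusted p = 0.0559). SMCP, a protein of the sperm mitochondrial capsule, was at 0 to 5.96 CPM and 74.6 to 1305 CPM. With libraries as samples and season in the fit, which takes the libraries of an animal as independent, edgeR called 940 of 10025 genes. PCDH11X then changed by 4.06 ± 0.50 and SMCP by -6.59 ± 0.73 (edgeR adjusted p = 0.000555 for each). As 3 of the 4 prepubertal libraries went against the label, these differences compare the rule's barcodes and not a cell type.

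The X chromosome was still read in early spermatocytes. The share of UMIs of located genes that came from the X was 2.99% in adult animal 1 and 2.39% in adult animal 2 in the non-breeding season, 1.48% in the adult breeding library and 1.37 to 1.86% in the aged ones. In the later spermatocyte gate it was 0.446 to 0.820% in the adult and aged libraries. In the spermatogonial gate it was 3.61% and 2.10%, 1.43%, and 1.33 to 1.63%, and in endothelial barcodes 2.04 to 2.63% in the 7 adult and aged and 3.02 to 3.35% in the 4 prepubertal libraries. The share in early spermatocytes was thus above that of the later gate in each of the 7 libraries, as a description with no test.

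Some X-linked genes are named for their levels. TKTL1, of the transketolase family, was at 473 CPM in early spermatocytes, 41.0 CPM in the later gate and 193 CPM in the spermatogonial gate. IL1RAPL1, a synaptic receptor, was at 268, 12.7 and 111 CPM. RPL10, the X-linked ribosomal protein gene, was at 551, 112 and 537 CPM. These are means over the 7 adult and aged libraries, and the 3 genes were chosen after their values were seen.

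**Figure D5:**
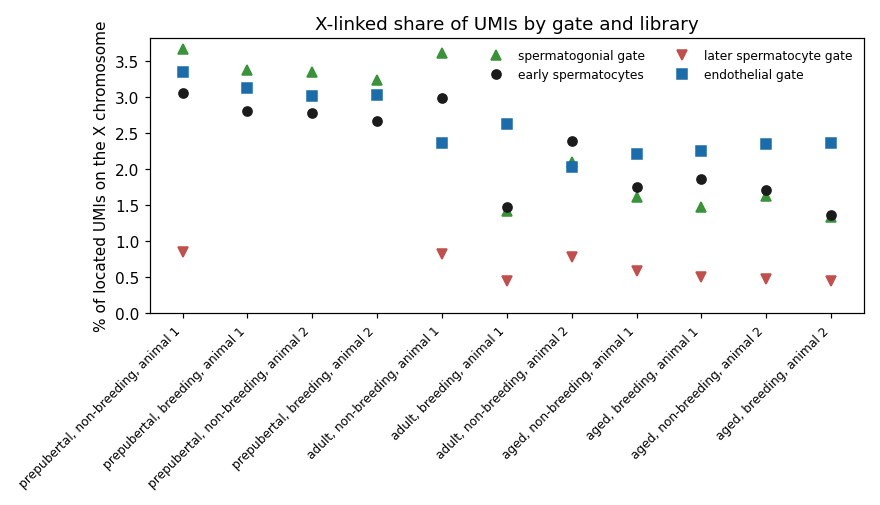
Percent of UMIs of located genes that lie on the X chromosome in the spermatogonial gate, early spermatocytes, the later spermatocyte gate and endothelial barcodes of each library. In the 7 adult and aged libraries early spermatocytes lie above the later gate, which stays between 0.446 and 0.820%.

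The seasonal difference in the X-linked share was tested over few animals. In the 3 adult and aged animals with at least 20 cells in both libraries (adult animal 1, aged animals 1 and 2) the breeding minus non-breeding difference was -1.51, 0.103 and -0.352 percentage points, a mean of -0.586 with an exact sign-flip permutation p of 0.5, where 0.25 is the smallest possible. The mean was -0.124 without adult animal 1 and -0.931 without aged animal 1. In prepubertal animals 1 and 2, which were not in that test, it was -0.262 and -0.120 percentage points. Gene by gene, the adult season comparison had a median log2 change of -1.09 over 275 X-linked genes and -0.16 over 8735 autosomal genes. Of the X-linked genes 52 (18.9%) had an unadjusted p under 0.05 and were lower in the breeding season, against 447 (5.12%) of the autosomal ones. With the animal as a block, 32 (11.6%) of X-linked genes were called lower and 13 (4.73%) higher, against 163 (1.87%) and 665 (7.61%) of autosomal genes. In aged animals the medians were -0.072 and -0.010. In adult animal 1 the X-linked share went from 3.61% to 1.43% at the breeding-season removal in the spermatogonial gate, and from 2.36% to 2.63% in endothelial barcodes. The spermatid list was higher in the breeding library in each of these cells, and its part in the X-linked share was not tested.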

How the data were processed

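Testes of 6 monkeys were profiled by 10x single-cell RNA-seq in 12 libraries. The authors made the deposited UMI count matrices with Cell Ranger 9.0.0 on Mmul_10 with an Ensembl annotation, one matrix of raw counts per library. No column was left unused. Members and gene lists were chosen with earlier results of these data known.

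Barcodes were filtered and gated as described above, with symbols taken from the matrices and, for 565 of 9920 features without one, from RefSeq by matching identifiers. Of 26530 features, 52 shared a symbol. Barcodes with the highest Scrublet scores were marked as doublets at 0.8% per 1000 barcodes in each library, because the automatic threshold marked none in most libraries, and they were kept unless stated. Clusters came from scanpy 1.11.5 (2000 variable genes, 20 components, 15 neighbours, Leiden resolution 0.5).

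Counts of members were summed per library (at least 20 members) and tested with edgeR 4.0.16 quasi-likelihood in R 4.3.3, with TMM scaling and Benjamini-Hochberg adjustment, over 10025 genes in 11 libraries. Ages were compared over 6 animals, with the libraries of an animal summed. Values after ± are standard errors of log2 changes. Log2 ratios to other cells used a pseudocount of 10 CPM. With 2 animals per group, p-values measure the spread between these animals and their samples. The same animal gave both seasons, so pairs come from the design. Deviations of same-animal libraries correlated at 0.0502 in aged and 0.0722 in prepubertal animals. Scripts were tested on simulated data.

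Genes named were up to 10 called in each direction by size of change (or the 5 with the lowest p), for each list the 3 with the highest mean level and 2 with the lowest p in the adult season, all rule genes and 15 leading genes. Other genes named were chosen after their values were seen, among them HORMAD2, SPATA22, SPDYA, TERB2, SYCE1, SHOC1, SPO11, MEIOSIN, MLH3, SCML2 and the X-linked genes.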

Additional observations from a re-analysis of the deposited data

How the results depend on the processing

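The adult gene comparison could not be run without the breeding library of adult animal 1, and cells with 0 UMIs of PRM1, PRM2 and TNP1 were at most 4 in every adult and aged library other than the first of adult animal 1, too few for the adult and aged gene results and the X-linked share. DESeq2 called 18 genes in the adult season, 571 between aged and adult and 495 between prepubertal and adult animals, with 8163 adjusted p missing in the first. Without the filter on low counts edgeR called 287, 8, 4 and 73 genes in the adult season, aged season, interaction and prepubertal season, and 1421 and 1002 in the aged and prepubertal comparisons with adults. With the animal as a replicate block the seasonal counts were 1006, 11, 406 and 36. Alternatives chosen after seeing the data gave 1328 (block without prepubertal libraries), 1042 (block with RLE scaling), 935 (block without clusters 1 and 10) and 827 (block without doublets) in the adult season. With libraries as samples and season in the fit, 14 genes (all lower) and 940 were called in the aged and prepubertal comparisons with adults. Thinning to 1000 UMIs gave 151 and 2 in the same order. The prepubertal comparison gave 33 with cells free of PRM1, PRM2 and TNP1, where adult animal 1 alone stood for the adults. It gave 110 without doublets and 245 without clusters 1 and 10.

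Leaving out 1 library at a time gave 0 to 701 genes in the adult season (701 with adult animal 2 left out, 1 library against 1), 0 to 1 in the aged season, 0 to 274 in the interaction and 0 to 30 in the prepubertal season. Leaving out 1 animal gave 0 to 1144 genes between aged and adult and 0 to 846 between prepubertal and adult animals (846 without adult animal 1 and 135 without adult animal 2). The aged difference in share ran from -0.710 to 1.94, and the adult one from -3.45 to -2.09. Without limits on late genes and protamines the adult difference was -2.44 and with at least 4 rule genes -3.11. In simulated counts of the adult comparison, 4-fold changes were called in 27.5% and 2-fold changes in 0.541% of cases. These too had a common spread for all genes and changes only in genes above the median level.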
